A study of Homo sapiens with 10 samples.

Results

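Polycomb repressive complex 2 (PRC2) methylates lysine 27 of histone H3 and keeps developmental genes silent. EZH2 and EZH1 are its alternative catalytic subunits. SUZ12 and EED complete the core, and MTF2, PHF19 and JARID2 are accessory subunits that help direct it to chromatin. EZH2 is a known target of E2F factors, the transcription factors through which the retinoblastoma protein (Rb) restrains cell cycle genes. Cyclin-dependent kinases, CDK2 among them, phosphorylate Rb and release it from E2F. The data described here are Rb peaks at the promoters of these 7 genes, which were chosen by name from 19970 protein-coding genes of the GENCODE annotation.

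Rb was mapped by CUT&RUN, in which a nuclease tethered to an antibody frees the DNA around the bound protein. Both cell lines used, OVCAR-3 and Kuramochi, are established human lines of high-grade serous ovarian carcinoma, and were given the genotype WT. Each line was exposed for 2 days to 300 nM of INX-315, an inhibitor of CDK2, or to DMSO, its solvent, with 2 Rb libraries per line and treatment and 1 IgG2a control library per line from DMSO-treated cells. The comparison asks where Rb sits once CDK2 is inhibited. Peak lists hold no expression values, so the identity of the lines was not checked here. The study's methods describe the 2 libraries of a group as separate cultures.

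The 8 Rb libraries held 5221 to 17281 peaks and covered a base with a mean of 0.216 to 0.501 fragments. Lists were longer under INX-315 (13031 to 17281 peaks) than under DMSO (5221 to 8794), although the INX-315 libraries were shallower on average. Of 87112 Rb peaks, 66 lay at the promoters of the 7 genes, defined as 2000 bp upstream to 500 bp downstream of any annotated transcript start. No IgG2a peak fell at these promoters, but this control could show little. Of the 257 IgG2a peaks of OVCAR-3, only 25 were on an autosome or X, where all 7 genes are. For Kuramochi it was 12 of 195. By contrast, 6129 of the 6162 Rb peaks of OVCAR-3 DMSO replicate 1 were on these chromosomes. No peak that gave a member its value was also the highest promoter peak of another protein-coding gene.

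The sequences below show where the consensus of E2F, the factor that tethers Rb to DNA, lies in the bound sites of these genes. The strings TTTCCCGC, TTTGGCGC, TTTCGCGC and TTTGCCGC were sought on both strands, and the match is in capitals. Each sequence is 30 bases of hg38, written 5′ to 3′ on the strand of the gene.
EZH2, chr7:148884272-148884301, minus strand, exon 1 UTR: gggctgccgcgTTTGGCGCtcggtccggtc
EZH1, chr17:42745137-42745166, minus strand, upstream of the start: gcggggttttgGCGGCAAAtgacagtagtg
SUZ12, chr17:31936807-31936836, plus strand, upstream of the start: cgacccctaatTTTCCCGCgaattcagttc
EED, chr11:86244950-86244979, plus strand, exon 1 UTR: ccgggagggcgGCGGGAAAagggcaagacg
MTF2, chr1:93079277-93079306, plus strand, exon 1 UTR: accggcagtccGCGGGAAAccaaaatggcg
PHF19, chr9:120877322-120877351, minus strand, upstream of the start: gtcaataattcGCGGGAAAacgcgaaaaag

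SUZ12 held a second match in the coding part of exon 1, and neither the JARID2 sites nor the internal site of PHF19 described below held any. The distance from the match to the summit, the base of a peak with the most fragments, differed between the genes. At EZH2 it was centred 4 bp downstream of the start of the MANE transcript (the reference transcript of the gene), whereas the nearest of the Rb summits was 176 bp away. At EZH1 the nearest summit was 110 bp away. SUZ12 had a summit 32 bp from its upstream match and 5 of its 8 summits within 100 bp of it, EED had its nearest summit at 18 bp and 3 of 8 within 100 bp, and MTF2 had its nearest at 54 bp and 2 of 8 within 100 bp. At the start site of PHF19 the nearest summit was 26 bp away, and 4 of 9 lay within 100 bp. In a window of 200 bp around the highest INX-315 summit, 1 of the 7 genes (SUZ12) held a match, and so did 4.18% of the same windows at the 13669 protein-coding genes with a promoter peak. In 400 bp it was 2 of 7 (MTF2 and SUZ12) against 9.09%, and in 1400 bp 5 of 7, all but PHF19 and JARID2, against 17.5%. With 7 genes these counts are a description and carry no test.

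Other promoter elements were sought in the same 200 bp windows. The CCAAT box (CCAAT), the site of NF-Y, was present at MTF2, PHF19, SUZ12 and EZH1, 4 of 7 genes, and at 19.1% of all genes. The GC box (GGGCGG), a site of Sp1 and its relatives, was present at 6 of 7, all but JARID2, and at 62.0% of all. The CHR element (TTTGAA or TTCGAA), through which the DREAM complex acts, was present at SUZ12 and at 4.51% of all. At SUZ12 a CHR match centred at −171 bp lay next to the E2F match at −186 bp.

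The highest summit of EZH2, the member with the most Rb, and those of the internal sites of PHF19 and JARID2 lay away from any E2F match and are shown next, with the summit base in capitals.
EZH2, chr7:148884549-148884578, minus strand, upstream of the start: ctgagaggcgccgtgTgttcagcgaaagaa
PHF19 internal site, chr9:120868998-120869027, minus strand, intron 6: gggcgggcctggagtGtcagccgcgggggt
JARID2 intronic site, chr6:15248118-15248147, plus strand, intron 1: cggctgcaagcccgTggctggcggcggctg

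Rb occupied most of these promoters without inhibitor. A gene was called bound when both libraries of a group had a promoter peak. Under DMSO, 6 of the 7 genes were bound in OVCAR-3, where 26.8% of all protein-coding genes were, and 5 of 7 in Kuramochi, where 24.8% were. JARID2 was bound in neither line under DMSO, and EZH1 was not bound in Kuramochi, where only replicate 2 had its peak. Under INX-315 all 7 were bound in both lines, against 55.5% of all genes in OVCAR-3 and 53.2% in Kuramochi. EZH2, SUZ12, EED, MTF2 and PHF19 had a peak in all 8 Rb libraries, as 18.8% of all genes did.

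Few members could therefore gain a peak. A gene was gained when both INX-315 libraries of a line and neither DMSO library had a promoter peak, and lost in the reverse case. In OVCAR-3 none of the 7 was gained, against 16.2% of all genes. In Kuramochi JARID2 was gained, 1 of 7 against 14.0%. None was lost in either line, where 0.00501% of all genes were lost in OVCAR-3 and 0.0150% in Kuramochi. The JARID2 call in Kuramochi was lost when each library was limited to the same number of top peaks. Without OVCAR-3 DMSO replicate 2, JARID2 was gained in OVCAR-3 as well, and without Kuramochi DMSO replicate 2, EZH1 joined it in Kuramochi.

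**Figure D1:**
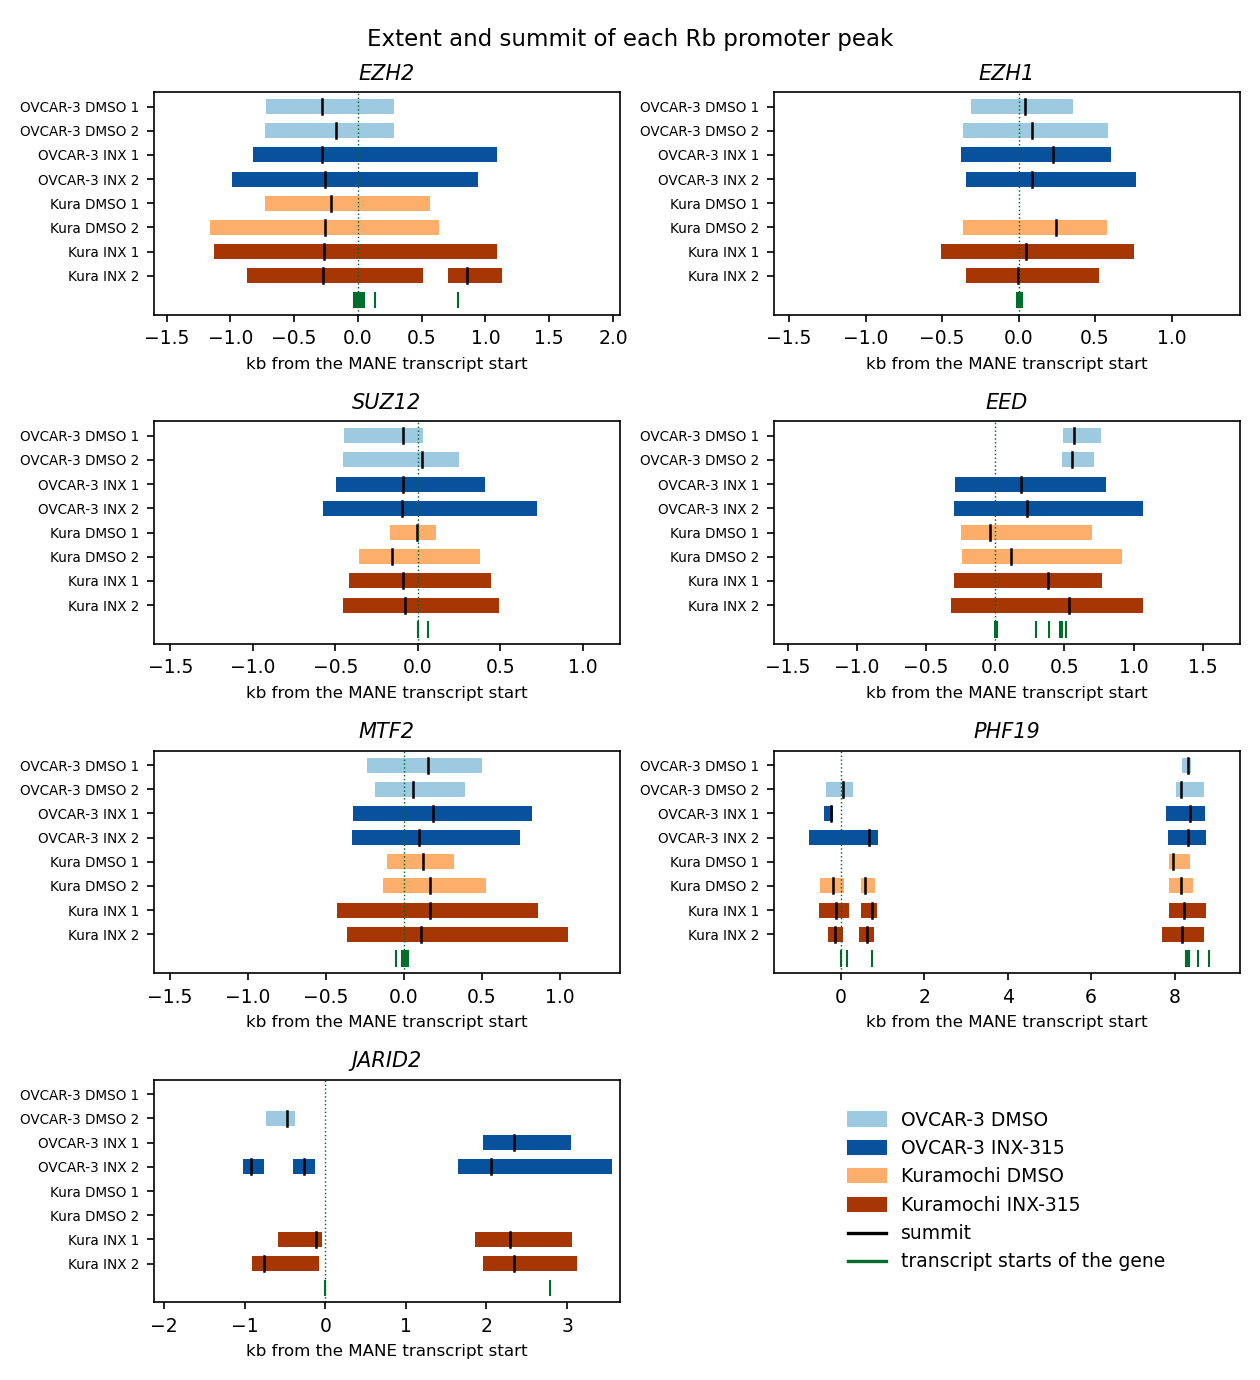
Extent of every Rb promoter peak (bars, coloured by line and treatment) in each of the 8 libraries, with its summit (black tick) and the transcript starts of the gene (green ticks), in kb from the MANE transcript start. The EED peaks of the OVCAR-3 DMSO libraries lie only downstream of the start, PHF19 has a second site about 8 kb into the gene, and the JARID2 site downstream of the start appears in INX-315 libraries only.

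The peaks had a position of their own at each gene, as the map of peak extents shows. EZH2 had the site on chromosome 7 from 148883164 to 148885454, and its main summit lay between −285 and −172 bp, upstream of the start, in all 8 libraries. Kuramochi INX-315 replicate 2 had a second, lower EZH2 peak with its summit at 854 bp and a height of 46.3. The SUZ12 site spanned 31936434 to 31937733 on chromosome 17, with summits from −154 to 26 bp. The EZH1 site spanned 42744275 to 42745547 on the same chromosome, with summits from −1 to 246 bp. The MTF2 site spanned 93078857 to 93080338 on chromosome 1, with summits from 62 to 186 bp. The main summit thus lay upstream of the start at EZH2 and downstream of it at MTF2 in every library.

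EED had the most variable position among the genes with a single site, on chromosome 11 from 86244431 to 86245819. In the OVCAR-3 DMSO libraries its peaks were 276 and 231 bp wide, with summits 567 and 553 bp downstream of the start, and did not reach the start itself. In the other 6 libraries the peak was 947 to 1389 bp wide and covered the start. In OVCAR-3 the mean width went from 254 bp under DMSO to 1229 bp under INX-315, and in Kuramochi from 1054 to 1231 bp. At the other genes bound under both treatments the mean width was larger under INX-315 too, for example 1010 and 1925 bp for EZH2 in OVCAR-3 and 547 and 1355 bp for MTF2 in Kuramochi. Whole peak lists had wider peaks under INX-315 too, with a median width of 482 to 559 bp in the DMSO libraries and 619 to 775 bp in the INX-315 libraries. No test was made of width.

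PHF19 and JARID2 each had 2 sites. The PHF19 site that every library held was not at the MANE start but in intron 6 of that transcript, on chromosome 9 from 120868430 to 120869500, with summits 7963 to 8360 bp downstream of the start. It contains the starts of 5 further PHF19 transcripts, 3 of them coding. The site at the MANE start (120876288 to 120877948) was called in 6 libraries and was the lower of the pair in each of them. JARID2 had an upstream site on chromosome 6 (15245053 to 15246024), called in 4 libraries, and a site in intron 1 (15247722 to 15249625), called in all 4 INX-315 libraries and in no DMSO library. That site contains the start of 1 further coding transcript of JARID2.

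Signal was expressed as summit height, the number of fragments over the summit of a gene's highest promoter peak divided by the genome-wide mean of the library. The fragment numbers were recovered from the fold enrichment and p-value that the authors' peak caller listed. They ranged from 5 to 151 over the 66 peaks, so several heights rest on few fragments. For PHF19 in OVCAR-3 DMSO replicate 1, 10 fragments carry an exact Poisson 95% interval of 4.80 to 18.4, whereas 151 fragments for EZH2 in Kuramochi INX-315 replicate 1 carry 128 to 177. These intervals cover counting error only, and duplicate fragments had been kept.

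EZH2 had the highest summit of the 7 genes in every library. In OVCAR-3 its heights were 72.8 and 91.7 with DMSO, and the inhibitor libraries had 199 and 314. In Kuramochi they were 148 and 195 with DMSO, and 373 and 496 with the inhibitor. Among all genes with a promoter peak it ranked 25th to 69th in the 4 Kuramochi libraries and 223rd to 300th in the 4 OVCAR-3 libraries, which placed it within the top 4.22% throughout and the top 0.887% in Kuramochi. The treatment groups did not overlap in either line, and at 97.3% of the 3762 genes with a peak in all 8 libraries INX-315 was likewise above DMSO in both.

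EZH1, the second catalytic subunit, was lower. In OVCAR-3 it had heights of 34.4 and 31.9 with DMSO, and of 84.8 and 166 with the inhibitor. In Kuramochi it had 50.0 in DMSO replicate 2, no peak in DMSO replicate 1, and 111 and 139 under INX-315. The INX-315 values were above every DMSO value measured.

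The core subunits SUZ12 and EED had lower summits than EZH2. SUZ12, which holds the complex together, had 40.4 and 29.9 in the DMSO libraries of OVCAR-3, against 97.9 and 117 with the inhibitor. In Kuramochi SUZ12 had 20.2 and 36.9, against 74.1 and 107. EED, which binds trimethylated lysine 27 and stimulates the enzyme, had 20.2 and 16.0 with DMSO in OVCAR-3, against 58.7 and 80.8 with the inhibitor. In Kuramochi EED had 38.2 and 73.7, against 114 and 167. Both Kuramochi DMSO values of EED were above both OVCAR-3 DMSO values, whereas those of SUZ12 overlapped between the lines.

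MTF2 and PHF19 are Polycomb-like proteins, which bind unmethylated CpG-rich DNA. In OVCAR-3 MTF2 had 42.4 and 45.9 with DMSO, against 117 and 78.5 with the inhibitor. In Kuramochi it had 31.5 and 52.7, against 81.5 and 88.0. The last of these could be 1 of 2 fragment numbers, the chosen one giving the closer match. PHF19, at its internal site, had 20.2 and 17.9 with DMSO in OVCAR-3, against 91.4 and 107 with the inhibitor. In Kuramochi PHF19 had 15.7 and 29.0, against 74.1 and 134. Under DMSO PHF19 was thus below MTF2 in every library, and under INX-315 it was above MTF2 in 2 of 4, the second replicate of each line.

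JARID2, a cofactor that recruits and stimulates the complex, was the lowest member in each library that had its peak. It had 1 peak under DMSO, of 14.0 in OVCAR-3 replicate 2. With the inhibitor it had 26.1 and 54.7 in OVCAR-3, and 42.0 and 46.3 in Kuramochi. The DMSO peak rested on 7 fragments, and the lowest INX-315 value on 8.

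**Figure D2:**
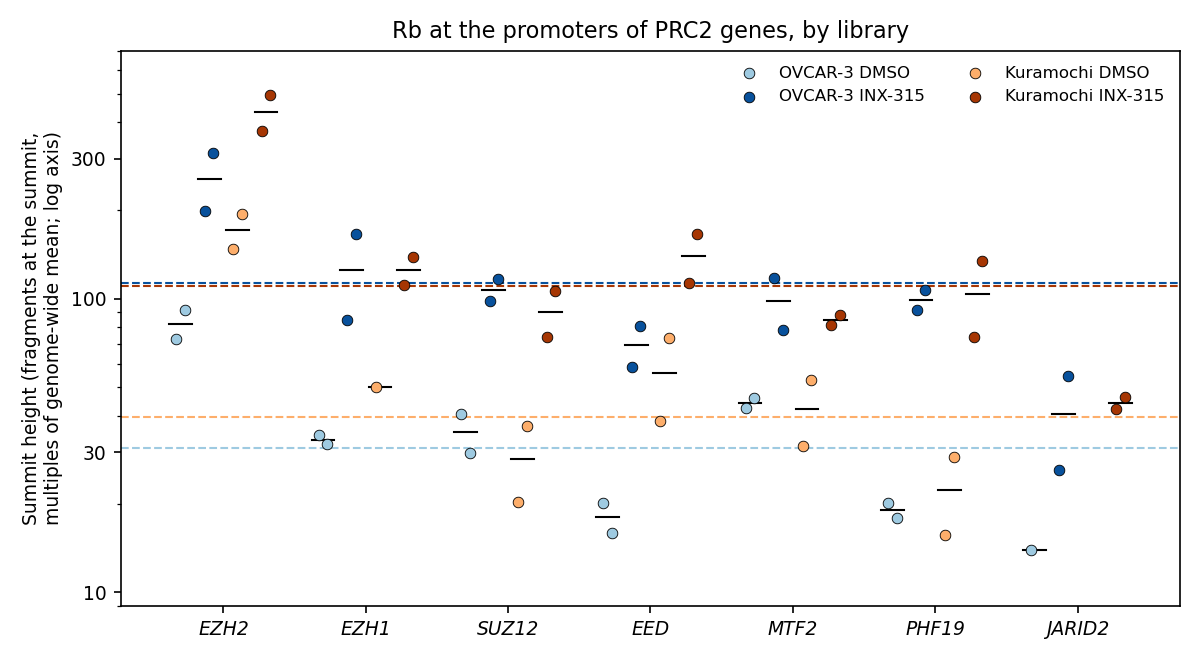
Summit height of the highest promoter peak (multiples of the genome-wide mean, log axis) for each gene in each library (points) with the group mean (black lines); dashed lines in the group colours mark the mean of the library medians of the 3762 genes with a peak in all libraries. EZH2 lies highest in all libraries and JARID2 lowest. INX-315 points lie above the DMSO points of their line for every gene with values in both, and in both lines they did so for 97.3% of the 3762 genes.

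The treatment comparison was made with limma on log2 summit height. Its p-values rest on a variance pooled over genes, so they do not measure the spread between cultures at a single gene. The fit covered the 3762 genes with a peak in all 8 libraries, which held 5 of the 7 members. All 5 were higher under INX-315 in each line (adjusted p under 0.05 by Benjamini-Hochberg), but so were 97.8% of all genes tested in OVCAR-3, 93.2% in Kuramochi and 99.7% in the mean of the lines. On the fold enrichment as listed, MTF2 was called in neither line (0.88 in OVCAR-3, limma adjusted p = 0.0826, and 0.66 in Kuramochi, limma adjusted p = 0.205), and EED was not called in Kuramochi (0.80, limma adjusted p = 0.130). The median change of all genes was 1.78 log2 units in OVCAR-3, 1.51 in Kuramochi and 1.64 in the mean. The rise at these 5 PRC2 genes was part of a rise that nearly every gene with a peak in all 8 libraries showed. A general gain of enrichment in the INX-315 libraries and a gain at each promoter cannot be told apart here, since no spike-in scaling was used.

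Within that rise the members kept different places. EZH2 rose by 1.61 ± 0.39 (log2, SE, n = 2 per group) in OVCAR-3 (limma adjusted p = 7.19e-05) and by 1.34 ± 0.39 in Kuramochi (limma adjusted p = 0.00113). SUZ12 rose by 1.62 ± 0.43 and 1.70 ± 0.43, and EED by 1.94 ± 0.43 and 1.37 ± 0.43. Their mean changes stood at the 32.2nd, 51.5th and 51.2nd percentile of all genes, in the middle part of the distribution.

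MTF2 and PHF19 stood at opposite ends. PHF19 rose by 2.38 ± 0.43 in OVCAR-3 and 2.22 ± 0.43 in Kuramochi, with a mean of 4.93-fold (limma adjusted p = 1.27e-12). That mean was 0.66 log2 units above the median gene and at the 96.9th percentile of all genes. MTF2 rose by 1.12 ± 0.43 (limma adjusted p = 0.0105) and 1.06 ± 0.43 (limma adjusted p = 0.0174), with a mean of 1.09 ± 0.31, or 2.13-fold, at the 7.26th percentile. When each library was centred on its median gene, PHF19 was 0.62 ± 0.21 above the typical gene (limma adjusted p = 0.0401) and MTF2 0.59 ± 0.20 below it (a change of −0.59, limma adjusted p = 0.0478). These centred values were the highest limma adjusted p of both genes over the alternative settings other than centring with a library left out. The uncentred settings gave a rise for MTF2 as well, for example 0.77 on the fold enrichment as listed (mean of the lines, limma adjusted p = 0.0289). In the centred fit 5.61% of all genes were called higher and 11.1% lower.

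Single libraries decided some calls within a line. MTF2 was not called in OVCAR-3 without DMSO replicate 1 (limma adjusted p = 0.0693) or INX-315 replicate 1 (0.102), nor in Kuramochi without DMSO replicate 1 (0.186), INX-315 replicate 1 (0.0701) or INX-315 replicate 2 (0.114). In Kuramochi EED was not called without DMSO replicate 1 (limma adjusted p = 0.0903) or INX-315 replicate 2 (0.0809), and EZH2 not without INX-315 replicate 2 (0.0580). A group left with 1 library was assumed to vary like the others. SUZ12 and PHF19 were called in each line with any library left out.

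Both centred calls were close to the threshold. With each of the 8 libraries left out in turn, PHF19 stayed between 0.47 and 0.77 and was called in 3 of 8 fits (limma adjusted p from 0.0226 to 0.222, the highest without Kuramochi INX-315 replicate 2). MTF2 stayed between −0.88 and −0.30 and was called in 2 of 8 (limma adjusted p from 0.00878 to 0.358, the highest without OVCAR-3 INX-315 replicate 2). Neither gene was called within a single line in the centred fit. EZH2, SUZ12 and EED were not called after centring, with mean changes of −0.20 ± 0.11, −0.02 ± 0.20 and −0.02 ± 0.19.

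**Figure D3:**
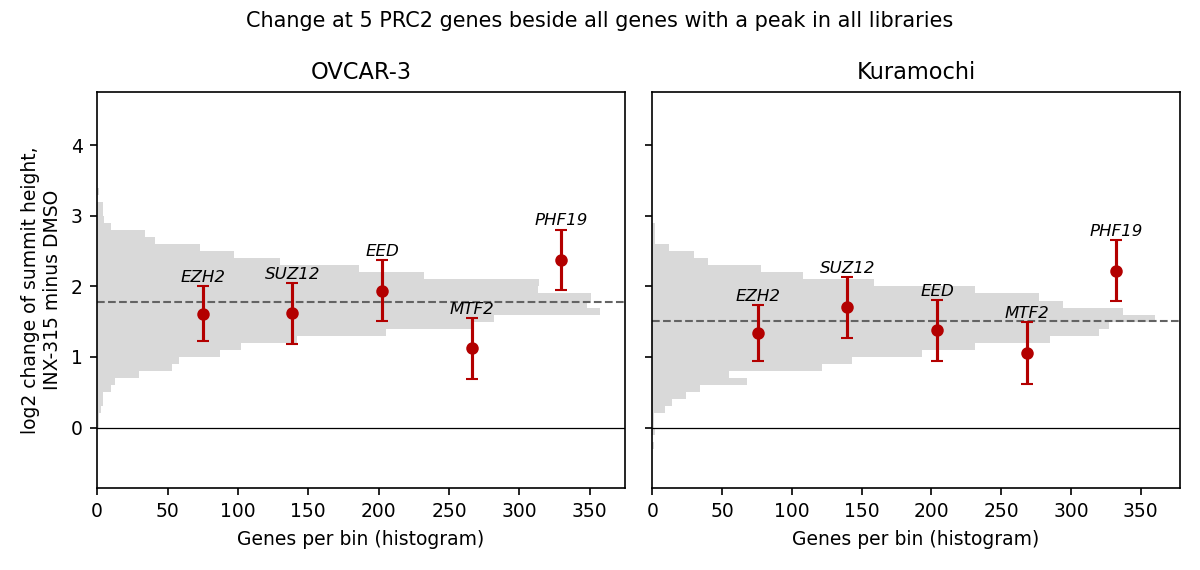
Log2 change of summit height, INX-315 minus DMSO, in OVCAR-3 (left) and Kuramochi (right), for the 5 PRC2 genes with a peak in all libraries (red points with SE) beside the distribution over all 3762 such genes (grey histogram, genes per bin of 0.1) and its median (dashed line). PHF19 lies above and MTF2 below the median in both lines, and EZH2, SUZ12 and EED lie near it. The horizontal positions of the red points carry no value.

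The highest promoter peak of each member was also ranked by its listed p-value within the peak list of its library. Such ranks use no common scale of height, but they depend on the length of the list. The percentile of PHF19 in the peak list was 31.8 and 41.7 with DMSO in OVCAR-3, against 79.3 and 80.4 with the inhibitor, and in Kuramochi 24.3 and 62.4, against 82.1 and 90.4. The mean change was 43.0 percentile points (exact two-sided permutation within lines, p = 0.0556, the smallest that 36 arrangements allow). EZH2 was at or above the 97.6th percentile in every library and moved by 0.508 points (exact permutation p = 0.0556). SUZ12 moved by 13.4 (exact p = 0.111), EED by 15.2 (exact p = 0.167) and MTF2 by −2.04 (exact p = 0.778). A percentile in a longer list means more peaks below, and with lists of equal length the change was 26.8 points for PHF19, −28.3 for MTF2 (exact p = 0.0556 each), −0.19 for EZH2, −2.16 for SUZ12 and −5.82 for EED.

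The same exact permutation of log2 summit height gave p = 0.0556 for each of the 5 members, the smallest possible. All 5 had both INX-315 summits above both DMSO summits in each line, which 97.3% of the 3762 genes had as well.

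At PHF19 the larger change belonged to the internal site. There the ratio of mean heights, INX-315 over DMSO, was 5.20 in OVCAR-3 and 4.66 in Kuramochi. At the MANE start, where 1 DMSO library of each line had a peak, it was 1.47 (20.5 against 14.0) in OVCAR-3 and 1.78 (46.8 against 26.3) in Kuramochi. A missing peak is no value, so the DMSO level at the start is known only from the library that passed the caller's threshold, and these ratios carry no test.

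EZH1 entered the fit only when a peak in 6 of 8 libraries sufficed. It then rose by 1.84 ± 0.44 in OVCAR-3 and 1.31 ± 0.53 in Kuramochi, the latter with a single DMSO library whose spread was taken from the other groups. A gene missing from the lowest library enters such a fit with its DMSO level set by the library that had a peak. JARID2 had too few values for any fit.

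The response of the 2 lines was compared by an interaction term. None of the 3762 genes passed it in either direction (0%, with 5 higher and 94 lower in Kuramochi at an unadjusted p under 0.05). For the members the difference, Kuramochi minus OVCAR-3, ranged from −0.57 ± 0.61 for EED to 0.08 ± 0.61 for SUZ12 (limma adjusted p = 0.998 for each of the 5). With SEs of 0.55 to 0.61, differences of this size were not detectable.

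Between the untreated lines EED was called different. Its summit was 1.56 ± 0.43 log2 units higher in Kuramochi than in OVCAR-3 under DMSO, or 2.96-fold (limma adjusted p = 0.00954), and 5.90% of all genes were called higher in Kuramochi. Summit height takes no account of local background. At EED that background was 1.06 and 1.03 times the genome-wide mean in OVCAR-3 DMSO, and 1.19 and 1.65 times in Kuramochi DMSO. The summits compared lay at 567 and 553 bp from the start in OVCAR-3, and at −41 and 116 bp in Kuramochi. Whether either accounts for the difference was not tested. The call rested on few libraries, with 1.73 (limma adjusted p = 0.0992) without OVCAR-3 DMSO replicate 1, 1.39 (0.188) without OVCAR-3 DMSO replicate 2 and 1.09 (0.226) without Kuramochi DMSO replicate 2, and it was not called on the listed fold enrichment (1.15, limma adjusted p = 0.335). Over all alternatives the adjusted p for EED ranged from 0.00110 to 0.335. EZH2 had a difference of 1.06 ± 0.39 (limma adjusted p = 0.0738), or 0.74 after centring (limma adjusted p = 0.00103, with a range of 0.00103 to 0.551 over the alternatives). SUZ12, MTF2 and PHF19 had −0.35, −0.12 and 0.16 (limma adjusted p from 0.669 to 0.906).

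The genes with the most similar heights over the 8 libraries were found by the root mean square difference in log2 height. For EZH2 these were USP1 (0.167), HNRNPAB (0.167) and ENSG00000272741 (0.168). For SUZ12 they were TBX6 (0.131), TOP2B (0.176) and ENO1 (0.184). For EED they were EXOSC4 and ENSG00000290230, which share a value of 0.210, and TTC33 (0.248). For MTF2 they were NUDT5 and CDC123 (0.247 each) and NFKB2 (0.256), and for PHF19 EPHX1 (0.213), CERS2 (0.226) and HERPUD2 (0.246). No member was among the closest genes of another.

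Further PRC2 genes were read in the same way. Of 8 further subunits and cofactors, 5 were bound in OVCAR-3 and 4 in Kuramochi without inhibitor (26.8% and 24.8% of all genes), and 6 in each line with it (55.5% and 53.2% of all genes). RBBP4, the histone-binding subunit, PHF1, the third Polycomb-like protein, and LCOR and LCORL, whose loci also encode the PALI cofactors, had peaks in all 8 libraries and mean changes of 1.21, 1.50, 2.06 and 1.70 log2 units. Each was called higher in both lines by limma, as 97.8% and 93.2% of all genes were. RBBP7, the paralogue of RBBP4, had no peak in Kuramochi DMSO replicate 1. AEBP2, a cofactor found with JARID2, was gained in both lines. EPOP had a single peak, in OVCAR-3 INX-315 replicate 2, and EZHIP, an inhibitor of the enzyme, had none in any library.

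Polycomb repressive complex 1 (PRC1) ubiquitinates histone H2A at many of the same targets. Of 18 PRC1 genes, 6 had Rb in the DMSO libraries of OVCAR-3 and 7 in those of Kuramochi, and 17 had it with the inhibitor in each line. Of all genes, 26.8% and 24.8% were bound under DMSO, and 55.5% and 53.2% with the inhibitor. The 7 gained in OVCAR-3 were BMI1, CBX8, KDM2B, PCGF1, PCGF3, RNF2 and RYBP, and the 5 gained in Kuramochi were CBX7, KDM2B, PCGF3, PCGF5 and RYBP (7 of 18 and 5 of 18, against the 16.2% and 14.0% of all genes given above). PCGF2, PCGF6, PHC1, PHC2 and PHC3 had peaks in all libraries, with mean changes from 1.11 to 1.46, and each was called higher in both lines except PHC1 in Kuramochi (0.68, limma adjusted p = 0.112). Of 6 genes that act against Polycomb marks, the H3K27 demethylases KDM6A and KDM6B and the H2A deubiquitinase BAP1 with ASXL1, ASXL2 and ASXL3, 3 were bound in OVCAR-3 and 4 in Kuramochi without inhibitor, and 5 in each line with it, beside the same shares of all genes. None was gained, against 16.2% and 14.0% of all genes, ASXL3 had no peak in any library, and BAP1 and ASXL1 had mean changes of 2.02 and 1.67 (limma adjusted p under 0.05 in each line).

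**Figure D4:**
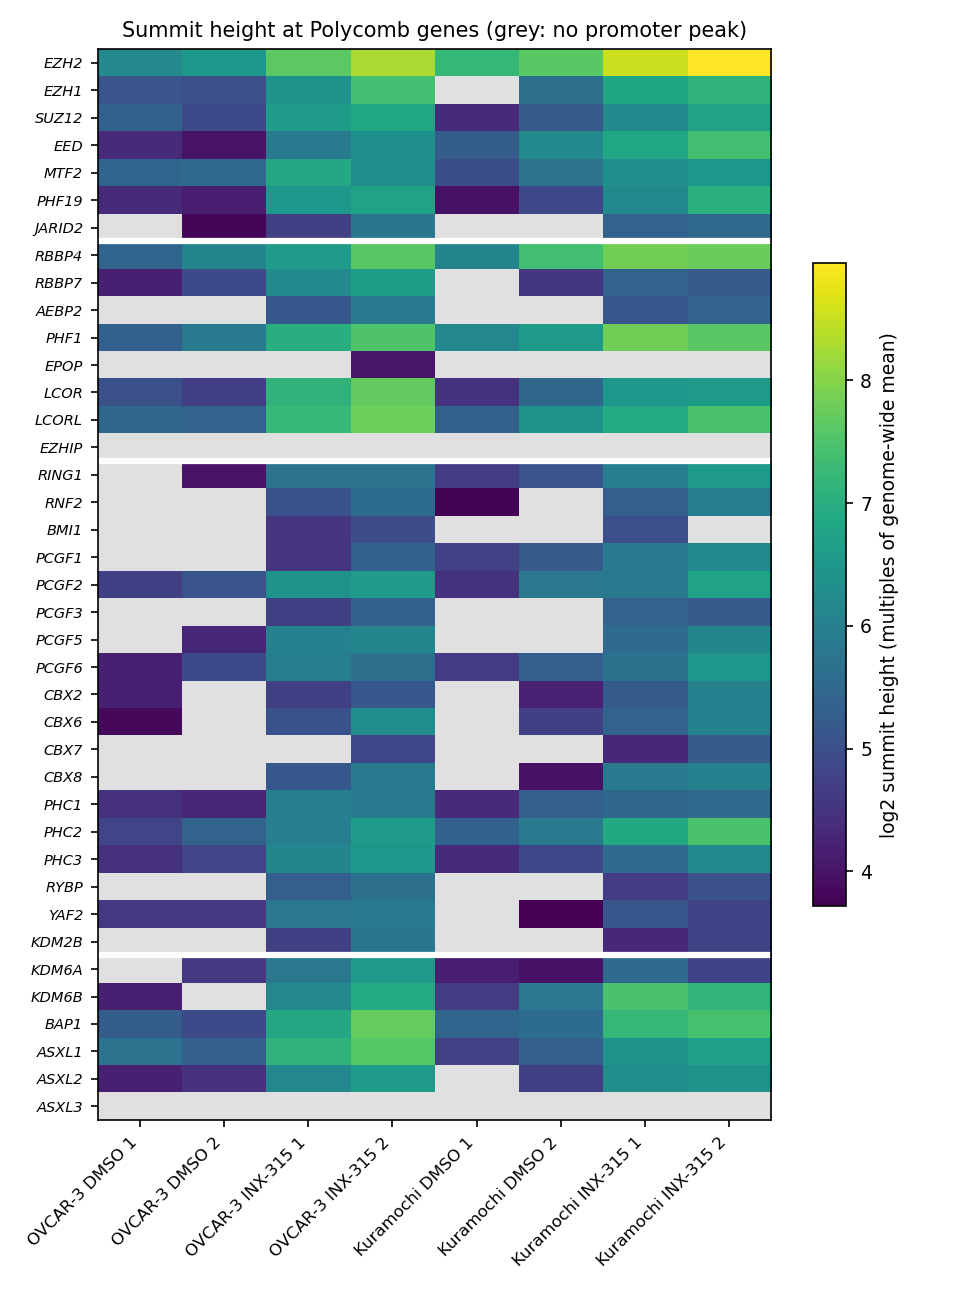
Log2 summit height (colour, multiples of the genome-wide mean) in the 8 Rb libraries (columns) for the 7 PRC2 genes, 8 further PRC2 genes, 18 PRC1 genes and 6 genes of demethylases and the H2A deubiquitinase (rows, white lines between the lists); grey marks a library without a promoter peak. The 7 PRC2 genes have few grey cells under DMSO, whereas the PRC1 genes have many.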

How the data were processed

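Rb and IgG2a CUT&RUN libraries of OVCAR-3 and Kuramochi cells were analysed from 10 deposited peak lists, 1 per library. Per the paper's methods and the submitters' processing notes, the authors trimmed reads, aligned them to hg38 with Bowtie2 2.3.4.1, removed mitochondrial and blacklisted reads, kept duplicates and called peaks per library with MACS2 2.2.7.1 (paired-end mode, q-value of 0.05, IgG2a of the line as control). How the IgG2a lists were called is not given in the sources used here. The deposited lists hold a fold enrichment (a linear ratio to the local background), a −log10 p-value and a −log10 q-value, the summit position and a display score that the authors' caller derives from the q-value. No spike-in scaling was used.

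Fragments at the summit (n) and local background (b) were recovered as the whole number for which (n + 1)/(b + 1) and the Poisson tail returned the listed ratio and p-value within a relative tolerance of 3e-05. In every Rb library 98.6% or more of the peaks had a single solution. The genome-wide mean was the lowest background shared by at least 5% of peaks. A promoter overlap of 1 bp sufficed, over 252835 transcript starts of GENCODE release 44. On 23 of 23 main chromosomes peaks ended inside the reference. Log2 summit heights were fitted with limma 3.58.1 in R 4.3.3 (4 group means, variance trend, Benjamini-Hochberg over 3762 genes). The moderated variance was pooled over genes, with an infinite prior. Scripts were tested on simulated data. The study's test on reads could not be applied to peak lists. Alternatives were fold enrichment, centring, a stricter q-value of 0.001, narrower promoters of 500 bp, lists of equal length (6162 peaks in OVCAR-3, 5221 in Kuramochi), a peak in 6 of 8 libraries, a replicate block, each library left out and, added after the data were seen, a fit with no variance trend, the permutation of heights, the wider motif windows and the centred fits with a library left out. Replicate numbers were not used to pair libraries in the main fit. All 7 members were named whatever their values, with the related lists by counts, and 1 related gene is not reported here. Members and lists were chosen with earlier results of these data known.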

Additional observations from a re-analysis of the deposited data

How the results depend on the processing

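Centring each library on its median gene takes out the general rise by construction, so a negative value means a rise smaller than that of the library medians. The mean change was then negative for EZH2 (−0.20), SUZ12 (−0.020), EED (−0.023) and MTF2 (−0.59). In OVCAR-3 it was negative for EZH2 (−0.23), SUZ12 (−0.23) and MTF2 (−0.72), and in Kuramochi for EZH2 (−0.18), EED (−0.14) and MTF2 (−0.46). Centring left 302, 207 and 628 genes called in OVCAR-3, Kuramochi and their mean, with 0, 0 and 2 members, and 1095 genes with 2 members between the untreated lines. On the listed fold enrichment 4 members were called in OVCAR-3, all but MTF2, 2222 genes and 3 members were called in Kuramochi, and 5 genes and 0 members between the untreated lines. With a peak in 6 of 8 libraries 6002 genes were called in OVCAR-3 and 6259 in the mean, where more genes were tested. Lists of equal length left 0 members gained in Kuramochi and gave rank changes of −0.19 for EZH2, −2.16 for SUZ12 and −5.82 for EED. With single libraries left out, members gained ranged from 0 to 1 in OVCAR-3 and from 1 to 2 in Kuramochi, members called from 2 to 5 in Kuramochi, the lowest without its INX-315 replicate 2, and calls between the untreated lines from 67 to 609 genes and from 0 to 2 members. Over genes, the deviations of same-numbered libraries from their group means correlated at −0.04 in OVCAR-3 and −0.01 in Kuramochi. This correlation cannot show a shift shared by whole libraries. Replicate 2 had the higher median height of genes with a peak in all libraries in each group, for example 33.9 against 28.3 in OVCAR-3 DMSO. Whether the numbers pair libraries was therefore not settled. The replicate block called 1 gene for the difference between the lines, 436 genes and 2 members between the untreated lines, and lost no member's call under treatment. Among the values of single genes under an alternative, 300 counted as unchanged, 19 lost their call, 3 gained a call and 13 changed sign. Values counted as unchanged include log2 changes that switched sign with neither value called. They also include rank changes that kept their direction, whatever their p-value. The causes were not tested unless stated. Depth limits single heights most in Kuramochi INX-315 replicate 2, where 1 fragment equals 4.63 units of height.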

Other observations

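A few Rb peaks lay in the bodies of these genes outside their promoters. MTF2 had 1 such peak in OVCAR-3 DMSO replicate 1, OVCAR-3 INX-315 replicate 1 and Kuramochi DMSO replicate 2, starting between 93080147 and 93080440 on chromosome 1, just past the promoter window, with fold enrichments of 4.29, 4.99 and 5.07. JARID2 had 1 in OVCAR-3 INX-315 replicate 1 (4.26) and 1 in Kuramochi INX-315 replicate 1 (3.33), at different places, and EED had 1 in Kuramochi INX-315 replicate 2 (3.29). EZH2, EZH1, SUZ12 and PHF19 had none in any library. Neither IgG2a library had a peak in any of the 7 genes. However, only 25 IgG2a peaks of OVCAR-3 and 12 of Kuramochi were on an autosome or X.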
